A study of Mus musculus with 5 samples.

Results

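The genes described here control the passage from G1 to S phase and copy DNA in MIN6 cells, a line of insulin-secreting cells derived from a mouse insulinoma. The 37 members were chosen by gene symbol, as cyclins, cyclin-dependent kinases and their inhibitors, the Rb and E2F regulators, and genes of origin licensing, the replication fork, nucleotide supply and chromatin assembly. All 37 of 37 were on the array, among 31896 genes with at least 1 probe. Of these, 36 were found by the symbol the array gives, and Orc1 through the RefSeq accession of its probe. The brightest probe by mean signal stands for each gene.

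Expression was measured on 1-colour Agilent mouse arrays, 1 array per sample. EXO-HP samples (n = 3) were MIN6 cells treated with exosomes that dissected muscle of high fat fed mice had released in culture. EXO-STD samples (n = 2) were MIN6 cells treated with exosomes collected the same way, by ultracentrifugation, from muscle of mice fed a standard diet. Both groups thus received vesicles. The sources used here give neither cells without vesicles nor the dose, the length of treatment, or the age and strain of the mice. The samples are named biological replicates, without word on whether cultures or donor mice were separate, so p-values measure only the spread between these samples, which may be technical. MIN6 came from mice that express the large T antigen of simian virus in beta cells, an oncoprotein that binds Rb and p53, which limits the line as a model of G1 control.

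Entry into S phase starts when D cyclins and their kinases phosphorylate Rb, which frees E2F factors to switch on cyclin E and the replication genes. Inhibitors of the INK4 family (Cdkn2a, Cdkn2b, Cdkn2c) block the D cyclin kinases, and those of the CIP/KIP family (Cdkn1b, Cdkn1c) bind cyclin and kinase complexes more broadly. In G1, ORC, Cdc6 and Cdt1 load the MCM helicase on origins, and GINS later helps to activate it. In beta cells, Ccnd2 and Cdk4 are known to be needed for postnatal growth of the cell mass in mice, and loss of Cdkn1b or Cdkn2c is known to allow more division.

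E2F factors are known to bind short GC-rich words in promoters of S phase genes, so the promoters of the members were searched for them. Promoter windows of 300 bases (250 before and 50 after the start site; RefSeq, GRCm38.p6) were matched by symbol for 30 of the 37 members, in 39 windows. Ccnd1, Ccnd2, Ccne2, Cdkn1c, Rb1, Mcm4 and Gins2 had no entry. The E2F words searched were TTTCCCGC, TTTGGCGC, TTTCGCGC and TTTGCCGC on both strands, where matches on opposite strands may overlap. At least 1 match was found in 14 of the 30 genes, and in 14 of the 39 windows (35.9%), against 2.26% of all 32851 windows. Among licensing and helicase genes 7 of 8 held a match (Mcm3, Mcm5, Mcm6, Mcm7, Cdc6, Cdt1 and Orc1, but not Mcm2), among fork genes 3 of 7 (Pola1, Rfc3 and Lig1), and among nucleotide supply genes 0 of 3. A CCAAT box (CCAAT, both strands) was in 24 of the 39 member windows (61.5%), against 37.4% of all. The CHR word (TTTGAA, both strands), an element of late cell cycle genes, was in 4 of the 39 (10.3%), against 17.9% of all. These matches describe letters in a window and no binding was measured.

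The 200 bases before the start site are shown for 4 licensing genes that hold matches and for the upstream promoter of Cdkn2a, written 5′ to 3′ on the gene's strand with the E2F words in capitals. Mcm5 (chr8:75109309-75109508, plus strand) and Mcm6 (chr1:128359706-128359905, minus strand) have overlapping matches on opposite strands, and Mcm6 has a further match nearer its start. Orc1 lies at chr4:108579254-108579453 (plus), Cdc6 at chr11:98907951-98908150 (plus) and the Cdkn2a window at chr4:89294620-89294819 (minus). The other Cdkn2a window held no match.
Mcm5: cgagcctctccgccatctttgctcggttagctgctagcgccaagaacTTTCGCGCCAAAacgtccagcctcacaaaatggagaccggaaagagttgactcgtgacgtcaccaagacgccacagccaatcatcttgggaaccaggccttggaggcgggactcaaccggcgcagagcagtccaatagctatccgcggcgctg
Mcm6: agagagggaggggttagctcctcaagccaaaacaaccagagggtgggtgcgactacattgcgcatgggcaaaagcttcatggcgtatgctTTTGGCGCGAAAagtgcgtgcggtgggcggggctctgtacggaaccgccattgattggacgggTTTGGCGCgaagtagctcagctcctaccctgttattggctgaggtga
Orc1: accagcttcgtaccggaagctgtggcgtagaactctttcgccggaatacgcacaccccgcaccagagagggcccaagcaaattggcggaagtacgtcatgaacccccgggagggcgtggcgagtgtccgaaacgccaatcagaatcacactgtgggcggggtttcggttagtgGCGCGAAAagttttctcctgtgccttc
Cdc6: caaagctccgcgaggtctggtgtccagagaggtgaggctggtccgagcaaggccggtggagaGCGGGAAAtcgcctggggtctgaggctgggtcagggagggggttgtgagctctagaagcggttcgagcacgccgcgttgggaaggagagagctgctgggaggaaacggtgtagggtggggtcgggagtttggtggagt
Cdkn2a: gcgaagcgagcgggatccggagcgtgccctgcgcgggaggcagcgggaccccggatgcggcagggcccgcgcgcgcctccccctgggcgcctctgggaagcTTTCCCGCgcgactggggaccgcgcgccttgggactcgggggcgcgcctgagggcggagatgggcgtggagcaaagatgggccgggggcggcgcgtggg

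**Figure D1:**
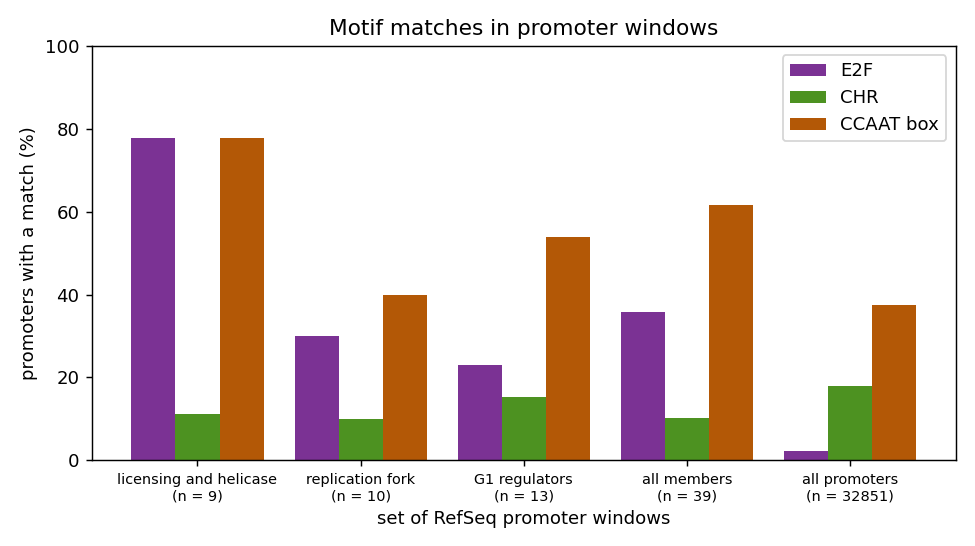
Share of RefSeq promoter windows (y axis, percent) with at least 1 match to the E2F words, the CHR word or the CCAAT box, for sets of member windows and for all windows (x axis, with the number of windows). The E2F bar stands at 35.9% for all members and 2.26% for all promoters, while the CHR bar is lower in the members.

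The comparison of EXO-HP with EXO-STD asked whether vesicles of muscle from high fat fed mice change expression of the beta cell line. No gene of the G1 to S and replication programme passed the test. With limma, 0 of the 37 members had an adjusted p under 0.05 (Benjamini-Hochberg over 31943 probes, of which 0, or 0%, passed), and 0 of 37 had an unadjusted p under 0.05, against 5.6% of all tested probes (5.36% higher and 0.238% lower in EXO-HP). The smallest adjusted p of a member was 0.932 and the smallest unadjusted p 0.0863, both of Ccne2. All 37 were well above background on all 5 arrays, and no spot was saturated, so their values are measured levels and not limits. Log2 fold changes, EXO-HP minus EXO-STD, ran from -0.57 to 0.20, with standard errors between 0.18 and 0.33.

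Of the members, 13 had a log2 fold change above 0 and 24 below, with a median of -0.06, whereas 62.8% of all tested probes were above 0 and their median was 0.07. This split depends on the scaling. Median scaling moved the median of all probes to -0.10 and left 1 member above 0 and 36 below (median -0.23), so that the members' median lay 0.13 under that of all probes in both scalings. With quantile normalisation 15 were above 0 and 22 below (median -0.03, against -0.02 for all probes). Without EXO-STD replicate 1 the members' median was 0.02, with 19 above 0 and 18 below. Members whose EXO-HP arrays all lay above both EXO-STD arrays numbered 2 (E2f2 and Uhrf1), against 15.1% of all tested probes, and those with all EXO-HP arrays below numbered 4 (Ccne2, Cdkn1b, Cdkn2a and Fen1), against 2.76%. In either direction the groups did not overlap for 6 of the 37 members (16.2%), against 17.8% of all tested probes. The tested probes include dimmer ones, whereas all members were well above background on all 5 arrays. Among the 26951 probes that met this, the groups did not overlap for 15.0% (3206 above and 844 below). Of these probes 58.2% had a log2 fold change above 0 (median 0.04), and 2.79% had an unadjusted p under 0.05 (limma).

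**Figure D2:**
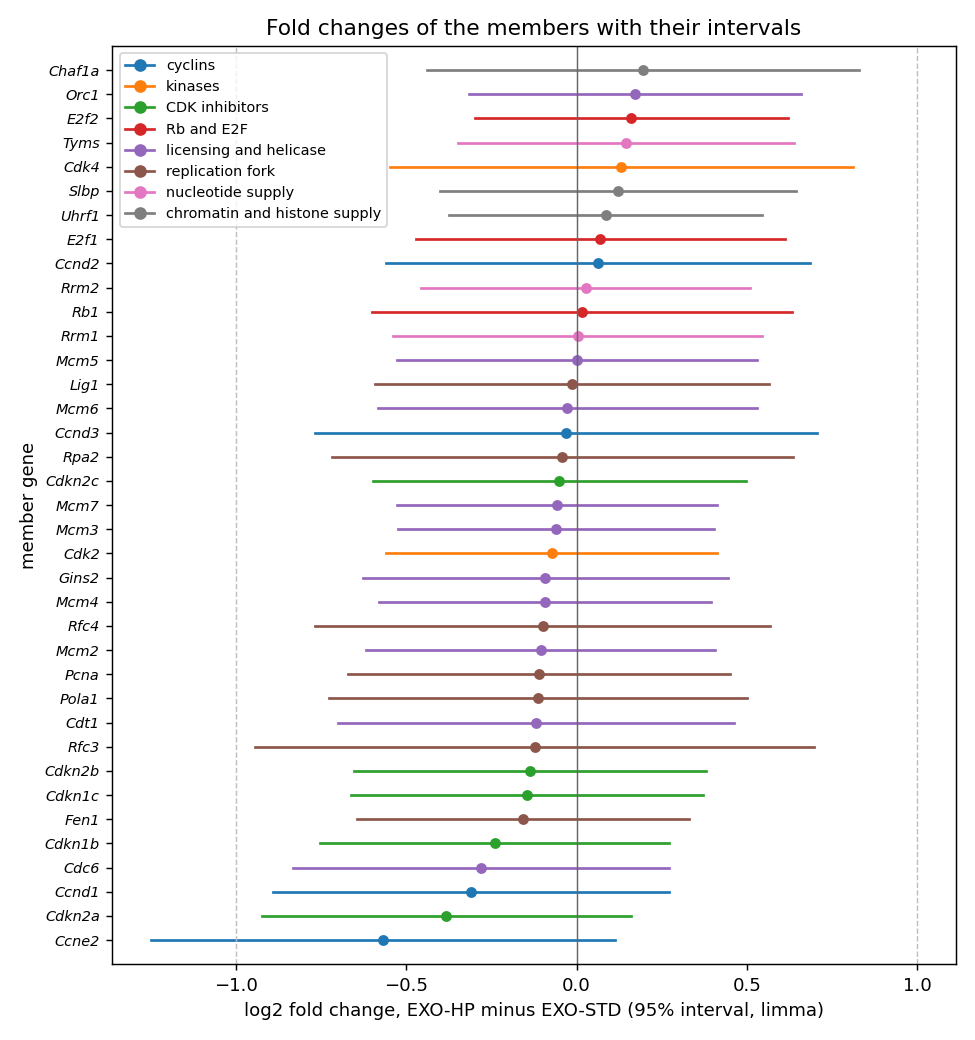
Log2 fold change of each of the 37 members (x axis, EXO-HP minus EXO-STD; points, with the 95% interval from limma as lines), ordered by size (y axis) and coloured by role, with dashed lines at -1 and 1. All 37 intervals span 0, and only that of Ccne2 reaches past -1.

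In the values that follow, a log2 signal of 0 is the 75th percentile of an array. Levels are compared between arrays for 1 probe and not between genes. Spots well above background made up 74.0%, 91.6% and 81.6% of EXO-HP replicates 1, 2 and 3, against 73.4% and 71.8% of EXO-STD replicates 1 and 2. EXO-HP replicate 1 and both EXO-STD arrays lay on slide 1 and in scan 1, and EXO-HP replicates 2 and 3 on slide 2 and in scan 2. With slide as a block, the fold change is that within slide 1, of 1 EXO-HP array against the EXO-STD arrays, and the members' median was -0.08, against 0.05 for all probes.

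Of the 4 D and E cyclins among the members, 1 had a log2 fold change above 0 and 3 below. Ccne1, a cyclin E that is not a member, was above 0 (0.66 ± 0.32). Ccnd1, the D cyclin that growth factors induce in many cells, was dim and read -5.80, -5.73 and -5.65 on EXO-HP arrays, against -5.68 and -5.16 on EXO-STD arrays. These log2 levels were 0.59 to 1.56 above the lowest signal that counted as well above background on the same array, and the groups overlapped. Its log2 fold change was -0.31 ± 0.23 (SE), which was -0.05 without EXO-STD replicate 2, -0.57 without EXO-STD replicate 1, -0.94 with quantile normalisation and -0.14 with normexp. Ccnd2, the main D cyclin of rodent beta cells, read 2.39, 1.81 and 2.14 on EXO-HP arrays, against 1.93 and 2.17 on EXO-STD arrays, so that EXO-HP held both the highest and the lowest level. The log2 fold change of Ccnd2 was 0.06 ± 0.25 (95% interval -0.56 to 0.69), and its sign changed with median scaling (-0.11). For Ccnd3, the third D cyclin, the log2 signals were 1.30, 1.74 and 1.26 in EXO-HP, against 1.80 and 1.13 in EXO-STD. The EXO-STD arrays thus lay at the ends of the range, and its log2 fold change of -0.03 ± 0.30 became 0.31 without EXO-STD replicate 1 and -0.37 without EXO-STD replicate 2.

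Ccne2, a cyclin E that activates Cdk2 at the start of S phase, showed the largest difference of the 37, except within slide 1, with normexp and without EXO-HP replicate 2, where that of Cdkn2a was larger. It read -5.34, -5.82 and -5.09 on EXO-HP arrays, against -4.92 and -4.78 on EXO-STD arrays. Every EXO-HP array lay below both EXO-STD arrays, and the EXO-HP arrays were more spread than the EXO-STD ones. The log2 fold change was -0.57 ± 0.27 (limma adjusted p = 0.932), with an interval from -1.25 to 0.11. It was -0.49 within slide 1, -0.30 with normexp, -0.37 without EXO-HP replicate 2 and -1.20 with quantile normalisation. Its probe was dim as well, 1.05 to 2.12 above the lowest such signal on the same array, and only 15% of its bases are G or C.

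The kinases did not pass. Cdk2, the partner of E and A cyclins, read -1.09, -0.96 and -1.21 in EXO-HP, against -0.96 and -1.06 in EXO-STD, a log2 fold change of -0.07 ± 0.20. Cdk4, the partner of D cyclins, read 3.41, 4.03 and 3.72 in EXO-HP, against 3.80 and 3.38 in EXO-STD. Both kinases overlapped between the groups. The log2 fold change of Cdk4 was 0.13 ± 0.27, turned to -0.18 within slide 1 and to -0.04 with median scaling, and its other 2 probes gave -0.02 and -0.07.

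All 5 CDK inhibitors had a log2 fold change below 0, with a median of -0.14, and none passed (smallest adjusted p = 0.975). Of the other inhibitors of these families, Cdkn1a, which encodes p21 and is named here after its value was seen, had 0.06 ± 0.20, and Cdkn2d had 0.36 ± 0.29. Cdkn2c was above 0 without EXO-HP replicate 1 (0.04) and without EXO-STD replicate 1 (0.11). Relative to the mean of EXO-STD, their median log2 signal was -0.26, -0.11 and -0.05 on EXO-HP replicates 1, 2 and 3, against 0.06 and -0.06 on EXO-STD replicates 1 and 2.

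Cdkn2a encodes both the INK4 inhibitor p16 and, from another first exon, the p53 activator Arf. The array assigns both of its probes to 1 accession, so the transcripts were not told apart here. The brighter probe read 3.60, 3.87 and 3.98 on EXO-HP arrays, against 4.10 and 4.30 on EXO-STD arrays. Every EXO-HP array lay below both EXO-STD arrays, with a log2 fold change of -0.38 ± 0.22 (interval -0.92 to 0.16), which was -0.60 within slide 1. The second probe gave -0.54 ± 0.35, with -0.87, -0.28 and -0.63 on EXO-HP arrays, against -0.50 and 0.41 on EXO-STD arrays, and on that probe the groups overlapped. Cdkn1b, which encodes p27, an inhibitor of cyclin E and Cdk2 complexes, read 3.45, 3.30 and 3.65 in EXO-HP, against 3.68 and 3.74 in EXO-STD. The EXO-HP arrays again lay below both others, and the log2 fold change was -0.24 ± 0.21, but the second probe, which the array assigns to another accession, gave 0.03 ± 0.23.

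The probes of Cdkn2a and Cdkn1b, with that of Ccne2, are shown because the differences above rest on them, and because those of Cdkn1b disagreed in sign (array design, mm9, 5′ to 3′, sense strand of the gene). For Cdkn2a the brighter probe lies at chr4:88920405-88920464 and the second at chr4:88920543-88920602, both on the minus strand. For Cdkn1b they lie at chr6:134875424-134875483 and chr6:134873606-134873665, and for Ccne2 the probe lies at chr4:11131423-11131482, all on the plus strand. Exon annotation of mm9 was not used here.
Cdkn2a brighter probe: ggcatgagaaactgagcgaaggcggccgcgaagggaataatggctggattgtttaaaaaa
Cdkn2a second probe: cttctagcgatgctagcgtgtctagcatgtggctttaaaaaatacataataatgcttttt
Cdkn1b brighter probe: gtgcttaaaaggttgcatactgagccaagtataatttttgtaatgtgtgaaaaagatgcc
Cdkn1b second probe: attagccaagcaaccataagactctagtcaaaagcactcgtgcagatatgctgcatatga
Ccne2 probe: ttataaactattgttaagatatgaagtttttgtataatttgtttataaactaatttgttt

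Cdkn1c, which encodes p57, an imprinted inhibitor, read -2.40, -2.13 and -2.47 in EXO-HP, against -2.12 and -2.25 in EXO-STD (log2 fold change -0.14 ± 0.21). Cdkn2b, which encodes p15 and responds to TGF-beta, read 0.98, 1.16 and 1.24 in EXO-HP, against 1.39 and 1.13 in EXO-STD (-0.14 ± 0.21), and its second probe gave -0.07. Cdkn2c, which encodes p18, read 3.22, 3.55 and 3.43 in EXO-HP, against 3.61 and 3.29 in EXO-STD (-0.05 ± 0.22). For these 3 inhibitors the groups overlapped, and their 95% intervals were -0.66 to 0.37 for Cdkn1c, -0.65 to 0.38 for Cdkn2b and -0.60 to 0.50 for Cdkn2c.

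Rb1, E2f1 and E2f2 had log2 fold changes above 0, and all 3 were below 0 with median scaling. Rb1, the pocket protein that holds E2F in check, read 1.18, 1.22 and 1.56 in EXO-HP, against 1.07 and 1.53 in EXO-STD, a log2 fold change of 0.02 ± 0.25 that turned to -0.16 with median scaling and to -0.12 within slide 1. E2f1, an activator of S phase genes, read 1.77, 1.61 and 1.62 in EXO-HP, against 1.80 and 1.39 in EXO-STD (0.07 ± 0.22, and -0.11 with median scaling). In both, the EXO-STD arrays enclosed at least 1 EXO-HP array. E2f2, another activator, read 2.32, 2.30 and 2.40 in EXO-HP, against 2.22 and 2.14 in EXO-STD, and its groups did not overlap. Its log2 fold change of 0.16 ± 0.18 (interval -0.30 to 0.62) turned to -0.02 with median scaling. E2f2 was the only 1 of the 37 whose difference exceeded both the distance between the EXO-STD arrays and the range of the EXO-HP arrays.

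**Figure D3:**
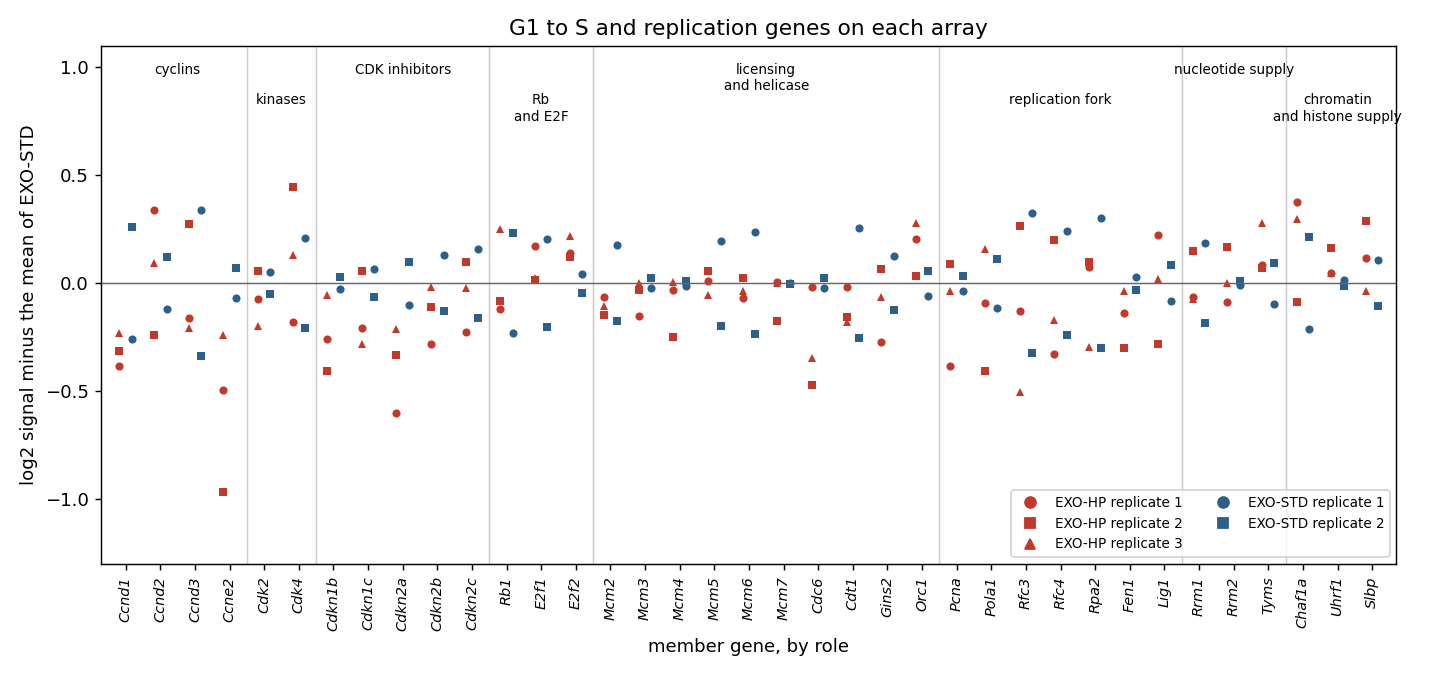
Log2 signal of each of the 37 members (x axis, by role) on each array, as the difference from the mean of the EXO-STD arrays (y axis); EXO-HP arrays in red to the left and EXO-STD arrays in blue to the right of each gene, with the marker shape giving the replicate. Ccne2, Cdkn1b, Cdkn2a and Fen1 have all red points below the blue ones, E2f2 and Uhrf1 all above, and the other 31 overlap.

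Of 10 genes of origin licensing and the helicase, 2 had a log2 fold change above 0 and 8 below (median -0.08), and in none were the groups apart. The median was 0.05 without EXO-STD replicate 1 and -0.21 without EXO-STD replicate 2. The 6 subunits of the MCM helicase, Mcm2 to Mcm7, had log2 fold changes between -0.11 and 0.00, and their intervals together ran from -0.62 to 0.53. Mcm2 read 2.88, 2.80 and 2.84 in EXO-HP, against 3.12 and 2.77 in EXO-STD (-0.11 ± 0.21, and 0.07 without EXO-STD replicate 1). Mcm4 read 3.96, 3.74 and 3.99 in EXO-HP, against 3.98 and 4.0 in EXO-STD (-0.09 ± 0.20). For both, at least 1 EXO-HP array lay between the EXO-STD arrays.

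Cdc6, the loader that joins ORC before Cdt1 brings the helicase, read 0.03, -0.43 and -0.30 in EXO-HP, against 0.02 and 0.07 in EXO-STD. EXO-HP replicate 1 lay with the EXO-STD arrays, and replicates 2 and 3, those of slide 2, lay lower. Its log2 fold change was -0.28 ± 0.22 over all arrays, -0.02 within slide 1 and -0.46 with median scaling, and its second probe gave 0.17 ± 0.20, so that the mean of both probes was -0.06. Cdt1 read 3.60, 3.46 and 3.44 in EXO-HP, against 3.87 and 3.36 in EXO-STD (-0.12 ± 0.23, and 0.14 without EXO-STD replicate 1). Orc1, the largest ORC subunit, read -2.96, -3.14 and -2.89 in EXO-HP, against -3.22 and -3.11 in EXO-STD (0.17 ± 0.20, and near 0 at -0.005 with median scaling). The 3 EXO-HP values of Cdt1 lay between its EXO-STD values, and those of Orc1 overlapped them at the lower end.

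The array holds a pair of Mcm3 probes that share 43 bases and differ there at a single position, A31G (counted from 1 at the 5′ end of the brighter probe, whose base is named first). They are shown because they report the same stretch of transcript with unlike values, and the capital marks that base. The brighter probe (chr1:20793136-20793195, minus strand, mm9) gave a log2 fold change of -0.06 ± 0.19 and the second (chr1:20793119-20793178), designed on a cDNA clone, -0.34 ± 0.29. On the second, EXO-HP arrays read 1.40, 1.99 and 2.11, against 2.36 and 1.99 on EXO-STD arrays. On the brighter, EXO-HP arrays read 2.74, 2.86 and 2.89, against 2.87 and 2.91 on EXO-STD arrays, so that EXO-HP replicate 1 was the lowest array on both.
Mcm3 brighter probe: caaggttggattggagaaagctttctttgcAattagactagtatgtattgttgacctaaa
Mcm3 second probe: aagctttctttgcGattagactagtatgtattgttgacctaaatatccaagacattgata

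All 7 member genes of the replication fork had a log2 fold change below 0 (median -0.11), and none passed. Polymerase, primase, clamp loader and single-strand binding genes outside the members, named after their values were seen, lay on both sides of 0. Above were Rfc2 (0.18), Pold1 (0.11), Pold2 (0.08), Pola2 (0.04), Pole2 (0.03) and Pole (0.02). Below were Rpa3 (-0.14), Rpa1 (-0.08), Prim2 (-0.08), Rfc1 (-0.04) and Rfc5 (-0.04). Lig1, the ligase that seals Okazaki fragments, was above 0 with quantile normalisation (0.04), and within slide 1 both Lig1 (0.22) and Rpa2, a subunit of the single-strand binding protein, (0.07) were. When 1 array was left out, 2 or 3 of the 7 were above 0, and without EXO-STD replicate 1 they were Rfc3 (0.20) and Rfc4 (0.14), both of the clamp loader, and Rpa2 (0.26). Pcna, the sliding clamp, read 5.001, 5.47 and 5.35 in EXO-HP, against 5.35 and 5.42 in EXO-STD (-0.11 ± 0.23, and -0.38 within slide 1). EXO-HP replicate 1 was its lowest array and EXO-HP replicate 2 its highest. Fen1, the flap nuclease that trims Okazaki fragments, read 4.13, 3.96 and 4.23 in EXO-HP, against 4.29 and 4.23 in EXO-STD. All its EXO-HP values lay below the EXO-STD ones, with EXO-HP replicate 3 and EXO-STD replicate 2 nearly equal, and the log2 fold change was -0.16 ± 0.20. Pola1, the catalytic subunit of DNA polymerase alpha, read 2.08, 1.76 and 2.33 in EXO-HP, against 2.06 and 2.28 in EXO-STD (-0.11 ± 0.25).

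The 3 genes of nucleotide supply and the 3 of chromatin and histone supply were above 0, and all except Chaf1a were below 0 with median scaling. Tyms, the thymidylate synthase, read -0.74, -0.76 and -0.55 in EXO-HP, against -0.92 and -0.73 in EXO-STD (log2 fold change 0.15 ± 0.20, and -0.03 with median scaling). Chaf1a, a histone chaperone subunit, read 2.39, 1.92 and 2.30 in EXO-HP, against 1.79 and 2.22 in EXO-STD (0.20 ± 0.25, and -0.02 without EXO-STD replicate 1). In both the groups overlapped. Uhrf1, which brings DNA methylation to new DNA, read 3.06, 3.18 and 3.06 in EXO-HP, against 3.02 and 3.00 in EXO-STD. Its EXO-HP arrays lay above by a small margin, 0.09 ± 0.18, which turned to -0.09 with median scaling. Slbp, the binding protein of histone mRNA, read 0.67, 0.85 and 0.52 in EXO-HP, against 0.67 and 0.45 in EXO-STD (0.12 ± 0.21), and its second probe gave -0.10.

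The remaining 11 members (Mcm3, Mcm5, Mcm6, Mcm7, Gins2, Rfc3, Rfc4, Rpa2, Lig1 and the ribonucleotide reductase subunits Rrm1 and Rrm2) had log2 fold changes between -0.12 and 0.03, with 3 above 0 and 8 below. Their standard errors lay between 0.19 and 0.33, and their intervals together ran from -0.94 to 0.70. Over all 37 members, the interval lay within -1 and 1 for 36, on the brightest probe and in the main scaling. There, a change of more than 2-fold in either direction was outside the 95% interval for these 36. Second probes of Cdkn2a (-1.41 to 0.32) and Mcm3 (-1.07 to 0.39), both among the 36, had intervals that reached past -1. Those of the other further probes of members stayed within -1 and 1. Median scaling lowers every value by 0.18, and intervals under the alternatives are not given here. In a bulk culture, fewer cells in S phase and less RNA per cell cannot be told apart.

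For most members, arrays of a group differed from each other by more than the groups did. The EXO-STD arrays were further apart than the size of the fold change in 23 of 37 members, and the range of the EXO-HP arrays exceeded it in 34. The median distance between the EXO-STD arrays was 0.23, against a median size of fold change of 0.11 (log2). A distance between single arrays, or a range, varies more than a difference of means. It would thus exceed that difference in most genes even without any effect. No such count over all tested probes is given here, so these counts show nothing particular to the members. Members that were higher on EXO-STD replicate 1 than on replicate 2 tended to be higher on EXO-HP replicate 2 than on EXO-HP replicates 1 and 3, as in Cdk4, Ccnd3, Rfc3, Rfc4 and Rrm1, and the reverse held for Ccnd2, Chaf1a, Pola1 and Lig1. Over the 37 members the correlation of these differences was Pearson's r = 0.66, and over all tested probes it was 0.06. It describes genes that share the same arrays, which are not independent replicates, and has no test.

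**Figure D4:**
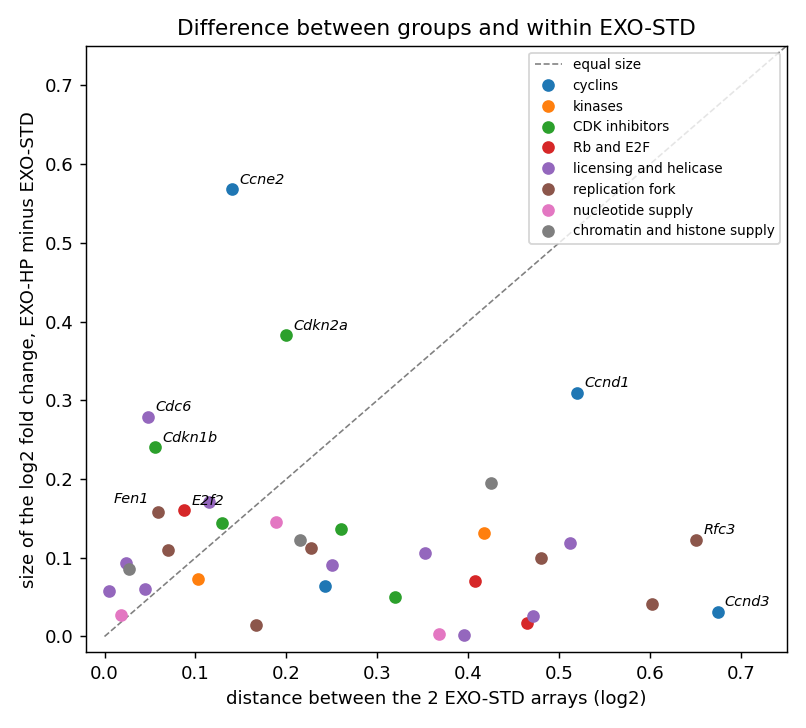
Size of the log2 fold change between EXO-HP and EXO-STD (y axis) against the distance between the EXO-STD arrays (x axis, log2) for the 37 members, coloured by role, with a dashed line where the sizes are equal. In 23 members the point lies below the line; Ccne2, Cdkn2a and Cdkn1b lie above it, and Ccnd3 and Rfc3 far below.

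Other genes of the pathway did not pass either. Of 65 further genes of G1 to S control and replication, 62 were tested, with 26 above 0, 36 below and a median log2 fold change of -0.03. Chek1, the checkpoint kinase that guards replication forks, was the only 1 of the 62 (1.61%) with an unadjusted p under 0.05 (0.52 ± 0.19, limma adjusted p = 0.890). The share was 5.6% of all tested probes and 2.79% of those well above background on all 5 arrays, as 61 of the 62 were. Chek1 read -3.48, -3.39 and -3.33 in EXO-HP, against -3.90 and -3.94 in EXO-STD. Ccne1, the other cyclin E, read 2.65, 3.26 and 2.93 in EXO-HP, against 1.90 and 2.68 in EXO-STD (0.66 ± 0.32), a sign opposite to that of Ccne2. Ccna1 (0.45 ± 0.22) and the fourth INK4 inhibitor, Cdkn2d (0.36 ± 0.29), followed by p. Ccna1 was dim, at -5.83 and -6.00 on the EXO-STD arrays. It was well above background on 3 EXO-HP arrays but on 1 EXO-STD array, and so passed the filter through EXO-HP alone, where it was higher. Of regulators of the inhibitors, 6 of 10 were tested, with 4 above 0 and 2 below, and Skp2 and Cks1b belong to both lists. Men1, which encodes menin, known to maintain Cdkn1b and Cdkn2c in islets, had 0.15 ± 0.19, the Polycomb genes Ezh2 and Suz12, known to repress Cdkn2a, 0.12 ± 0.31 and -0.12 ± 0.28, and Cks1b, a cofactor in p27 degradation, -0.11 ± 0.33.

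In the nearest other list, 28 genes of G2 and mitosis, 15 were above 0 and 13 below (median 0.00), with 0 of 28 at an unadjusted p under 0.05, against 5.6% of all tested probes. Those with the smallest p were the mitotic kinase Aurkb (-0.56 ± 0.24), the APC/C activator Cdc20 (0.78 ± 0.37), the phosphatase Cdc25c (0.19 ± 0.20) and Foxm1 (0.16 ± 0.19), a factor that drives G2 genes. The Aurkb probe was dim, between -5.07 and -4.27 over all arrays. Cdc20 read 4.55, 5.06 and 4.87 in EXO-HP, against 3.52 and 4.57 in EXO-STD, and its groups overlapped. The difference between both lists was not tested. All 12 beta cell markers, among them Ins1, Ins2, Pdx1 and Mafa, were well above background on all 5 arrays, and 10 of the 12 had a log2 fold change above 0 (median 0.19). For 5 of the 12 (41.7%) all EXO-HP arrays lay above EXO-STD, against 15.1% of all tested probes. Of the 26951 probes well above background on all 5 arrays, this held for 3206. Of 10 skeletal muscle markers 8 were tested and 8 were above 0, with a median on EXO-HP replicates 1, 2 and 3 of 1.40, 0.45 and 0.17 relative to the mean of EXO-STD, against -0.03 and 0.03 on EXO-STD replicates 1 and 2. Myh1 and Myh4 were each well above background on 1 of 3 EXO-HP arrays, against 0 of 2 EXO-STD arrays. On the same scale, 5 of 7 fibroblast markers that were tested had medians of -0.02, 1.11 and 0.22 on EXO-HP replicates 1, 2 and 3. The medians were 0.15, 0.84 and -0.09 for 4 of 5 macrophage markers, and 0.13, 0.79 and 0.18 for 4 of 4 endothelial markers. Well above background on all 5 arrays were 5 muscle, 3 fibroblast, 4 macrophage and 2 endothelial markers. The other tested markers could pass the filter through EXO-HP alone, so their direction may be set in part by the filter. The part of RNA from other cell types in the values of the members was not tested.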

How the data were processed

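The 5 scanner tables hold spot intensity values, background-subtracted and detrended by Agilent's software (version 10.7.3.1) per the file headers, and not scaled between arrays. Agilent Feature Extraction 9.1 and limma are the tools listed in the submitters' notes. The value table deposited by the authors holds log2 values with a median of 7.93 on each array. Its ranks equal those of mean signal minus local background (Spearman rho = 1), genes were not centred, its direction is that of the scanner signals, and its method is otherwise not given in the sources used here. Labelling started from 0.1 µg of RNA.

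Processed signals were put on a log2 scale without outlier spots, repeated spots were reduced to 1 mean per probe, and arrays were aligned at their 75th percentile, which was set to 0. Of 39429 probes, 110 had no usable spot on some array. A further 7376 reached the level well above background in fewer than 2 arrays of either group, leaving 31943. EXO-HP was compared with EXO-STD by limma 3.58.1 in R 4.3.3 (lmFit, eBayes, no covariates, Benjamini-Hochberg over all tested probes), with 3 residual degrees of freedom. With 2 and 3 arrays, the smallest 2-sided exact permutation p is 0.2. RefSeq accessions named 26055 probes. By the rule for named genes, all 14 G1 regulators and the 12 other members with the smallest p are given on every array, and the 4 genes with the smallest p of each further list are named. The members, lists and rule were chosen with earlier results of these data known. Alternatives were 2 other scalings, normexp (offset 50), the deposited table, 2 other filters, slide and replicate number as blocks, the mean of a gene's probes and leaving out each array. The number of arrays limits the precision.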

Additional observations from a re-analysis of the deposited data

How the results depend on the processing

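Under all 14 alternatives 0 of the 37 members passed adjusted p 0.05. Over all probes the count was 0 except without EXO-STD replicate 1, where it was 3 (range 0 to 3 when 1 array was left out). Members at an unadjusted p under 0.05 numbered 2 of 37 with median scaling (Ccne2 and Cdkn2a), where 4.04% of all probes did, and 0 under each other alternative. The filters leave fold changes as they are, and the replicate block gives the fold changes of leaving out EXO-HP replicate 3. With median scaling the members' median log2 fold change was -0.23 and that of licensing genes -0.25. When 1 array was left out these ranged from -0.13 to 0.018 and from -0.21 to 0.052. Among all probes at an unadjusted p under 0.05 (1788, of which 95.7% were higher in EXO-HP), the share higher was 74.6% of 867 with quantile normalisation, 83.9% of 1291 with median scaling, 73.2% of 631 with the deposited values and 59.1% of 843 with slide as a block.

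Signs of single members, none of them called, changed as follows, and the cause was not tested. With median scaling, which lowers every value by 0.18, the values were -0.11 for Ccnd2, -0.044 for Cdk4, -0.16 for Rb1, -0.11 for E2f1, -0.016 for E2f2, -0.17 for Mcm5, -0.17 for Rrm1, -0.15 for Rrm2, -0.030 for Tyms, -0.0048 for Orc1, -0.091 for Uhrf1 and -0.054 for Slbp. With quantile normalisation they were 0.023 for Mcm6, 0.0023 for Mcm7, -0.00061 for Orc1 and 0.038 for Lig1. Normexp gave -0.080 for Mcm5 and -0.10 for Rrm1. The deposited values gave 0.0045 for Ccnd3, -0.048 for Mcm5 and -0.081 for Rrm1, and the mean of a gene's probes 0.058 for Ccnd3. With slide as a block they were -0.18 for Cdk4, -0.12 for Rb1, 0.0032 for Mcm7, -0.066 for Rrm1, -0.088 for Rrm2, 0.073 for Rpa2 and 0.22 for Lig1.

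The replicate block uses numbers that only name the samples, since deviations of same-numbered arrays correlated at 0.025 and -0.056. With it 0 members passed, the median was -0.063, and the values that changed sign were 0.056 for Ccnd3, -0.10 for Rb1, 0.067 for Rfc3 and 0.085 for Rpa2. EXO-HP replicate 3 has no partner and drops out of that fit.

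Leaving out 1 array gave ranges that span 0 for 21 members: -0.37 to 0.31 for Ccnd3, -0.22 to 0.25 for Rb1, -0.45 to 0.20 for Rfc3, -0.34 to 0.26 for Rpa2, -0.077 to 0.34 for Cdk4, -0.20 to 0.20 for Mcm5, -0.088 to 0.0013 for Mcm7, -0.18 to 0.19 for Rrm1, -0.044 to 0.084 for Rrm2, -0.25 to 0.035 for Pola1, -0.13 to 0.12 for Lig1, -0.075 to 0.22 for Ccnd2, -0.21 to 0.11 for Cdkn2c, -0.21 to 0.027 for Pcna, -0.22 to 0.034 for Gins2, -0.34 to 0.14 for Rfc4, -0.13 to 0.27 for E2f1, -0.28 to 0.071 for Mcm2, -0.26 to 0.21 for Mcm6, -0.37 to 0.14 for Cdt1 and -0.017 to 0.41 for Chaf1a. A lone EXO-STD array is then assumed to vary like EXO-HP.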
